A study of Mus musculus with 4 samples.

Results

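Erythroid-like cells made up a minority of the mouse bone marrow stromal sort, and they are described here by their genes. They are barcodes of the 2 MSC libraries in which transcripts of the adult globin genes Hbb-bs, Hbb-bt, Hba-a1 and Hba-a2 hold at least 10% of the unique molecular identifiers (UMIs, the counted transcripts). Barcodes with under 200 genes or over 10% mitochondrial UMIs were left out first, as was any barcode with more UMIs in another library. The rule kept 112 of 581 MSC control cells (19.3%, exact Clopper-Pearson 95% interval 16.1 to 22.7%) and 82 of 375 MSC STAT5 KO cells (21.9%, 17.8 to 26.4%). These 194 cells are among 956 kept MSC cells and 11309 kept cells of the whole series. All intervals given here cover counting error only.

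The series holds 4 droplet libraries, 1 for each of 2 sorted populations in 2 genotypes. Both genotypes carry 1 copy of Vav1-Cre, a transgene driven by the Vav1 promoter, which works in blood cells. The STAT5 KO mice (Vav1-Cre/+STAT5abfl/fl) also carry floxed Stat5a and Stat5b in both alleles, and the control mice (Vav1-Cre/+STAT5ab+/+) carry intact copies. The MSC cells came from collagenase-digested femurs and tibias of mice aged 6 to 8 weeks. CD45+ cells were depleted with microbeads, and the sort then took cells negative for CD45 and CD71, negative or low for Ter119, and positive for Sca-1 and CD140a. The KLS cells, lineage-depleted marrow cells that carry c-Kit and Sca-1, came from 4 mice of 8 to 12 weeks. The labels tie no library to single mice and name no preparation batch, so the genotype of a library and its preparation cannot be told apart. With 1 library a group no test between groups was possible, and no p-value is given.

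Red cells form in the marrow from nucleated erythroblasts, which divide a few times, fill with hemoglobin, condense and expel the nucleus and become reticulocytes. Hemoglobin joins alpha and beta globin chains with heme, an iron-holding ring made partly in mitochondria, and reticulocytes then clear mitochondria and ribosomes as they mature. Erythropoietin drives survival in this lineage through its receptor, the kinase JAK2 and the transcription factors STAT5A and STAT5B. CD71, the transferrin receptor encoded by Tfrc, marks maturing erythroblasts, and Ter119 is a surface antigen of later erythroid cells.

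The regions upstream of the genes that mark these cells are shown because the globin genes chose the cells and Alas2, the first enzyme of heme synthesis in red cells, is another of their markers. Each is the 250 bases before the RefSeq transcript start, read 5′ to 3′ on the gene's strand (GRCm38.p6, sequences from RefSeq). They are Hbb-bs at chr7:103827929-103828178 on the minus strand, Hbb-bt at chr7:103813924-103814173 on the minus strand, Hba-a1 at chr11:32283422-32283671 on the plus strand and Alas2 at chrX:150547167-150547416 on the plus strand. Capitals mark matches, on either strand, to CACCC (the core of the sites that KLF1 binds), CCAAT (the CCAAT box) and AGATAA (a form of the site that GATA1 binds).
Hbb-bs: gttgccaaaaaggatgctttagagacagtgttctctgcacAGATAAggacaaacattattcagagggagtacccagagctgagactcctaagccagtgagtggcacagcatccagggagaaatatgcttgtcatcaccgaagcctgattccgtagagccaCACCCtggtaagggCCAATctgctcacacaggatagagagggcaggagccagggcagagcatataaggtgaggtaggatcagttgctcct
Hbb-bt: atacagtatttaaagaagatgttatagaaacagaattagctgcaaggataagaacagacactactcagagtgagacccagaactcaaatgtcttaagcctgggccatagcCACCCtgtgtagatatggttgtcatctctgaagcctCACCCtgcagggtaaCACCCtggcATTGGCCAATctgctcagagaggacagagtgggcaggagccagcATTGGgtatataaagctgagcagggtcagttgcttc
Hba-a1: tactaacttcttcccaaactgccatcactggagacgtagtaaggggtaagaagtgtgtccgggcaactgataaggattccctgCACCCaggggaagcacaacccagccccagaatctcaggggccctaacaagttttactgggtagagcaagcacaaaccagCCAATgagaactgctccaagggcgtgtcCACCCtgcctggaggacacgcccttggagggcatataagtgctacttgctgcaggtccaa
Alas2: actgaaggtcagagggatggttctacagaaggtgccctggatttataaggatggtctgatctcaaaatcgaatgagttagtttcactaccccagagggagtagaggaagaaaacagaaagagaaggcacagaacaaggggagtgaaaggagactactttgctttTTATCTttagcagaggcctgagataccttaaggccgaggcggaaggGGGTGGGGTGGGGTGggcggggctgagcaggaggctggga
All of these regions hold CACCC, the globin regions also hold CCAAT, and only the Hbb-bs and Alas2 regions hold AGATAA in this window. Hbb-bs has 1 match to each motif, while Hbb-bt has 3 CACCC and 3 CCAAT matches. Hba-a1 has 2 CACCC and 1 CCAAT matches. Alas2 has 3 CACCC matches in a row on the other strand and no CCAAT. They lie 40, 35 and 30 bases before the RefSeq start. The GENCODE start of Alas2, used for the gene coordinates below, is at 150547375, inside this window, and these matches lie past it. The Hba-a2 region (chr11:32296242-32296491, plus strand) is the same as that of Hba-a1 in 247 of 247 letters at a shift of 3 bases. Hbb-bs and Hbb-bt share 127 of 249 letters at their best shift of 1 base. No gaps were allowed, so an inserted or missing base puts later letters out of step, and the count can understate how alike these 2 regions are. Of 32851 RefSeq starts, 52.0% hold CACCC, 33.8% hold CCAAT and 9.99% hold AGATAA in a window of the same length. A match is a description of the letters and not a bound site.

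Depth differed by sort. The control MSC file has 672 barcodes with 1874023 UMIs and that of STAT5 KO has 425 with 1270763, against 55138419 and 82466835 UMIs in the KLS libraries. No barcode of the MSC files has under 501 UMIs. Libraries share barcodes: 229 of the MSC control and 200 of the MSC STAT5 KO barcodes also occur in another library, and 195 and 179 of the kept cells do. Among the erythroid-like cells 8 control and 2 STAT5 KO barcodes are shared in this way. The counts of genes, some list comparisons between genotypes and the levels along the hemoglobin share are also given without them. With every barcode found in another library dropped, from all MSC cells alike, 104 control and 80 STAT5 KO erythroid-like cells remained and made up 26.9 and 40.8% of the cells left. No KLS cell that was kept reached 10% hemoglobin UMIs, and the limit of 3 counts allows a share of up to 0.094% in control and 0.0419% in STAT5 KO.

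The erythroid-like cells held few UMIs, with medians of 522 in control and 525.5 in STAT5 KO outside the globin genes. Their median was 649 UMIs and 257.5 genes in control and 631.5 UMIs and 250 genes in STAT5 KO. The other MSC cells had medians of 3391 UMIs and 1484 genes in control and 3133 UMIs and 1413 genes in STAT5 KO. In control 95 of the erythroid-like cells (84.8%) and in STAT5 KO 74 (90.2%) held under 1000 UMIs, so most of them lie just above the smallest total in the files. Thinned to 400 non-hemoglobin UMIs a cell, they still showed fewer genes, with medians of 211 and 206.5 against 294 and 285 in the other cells.

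**Figure D1:**
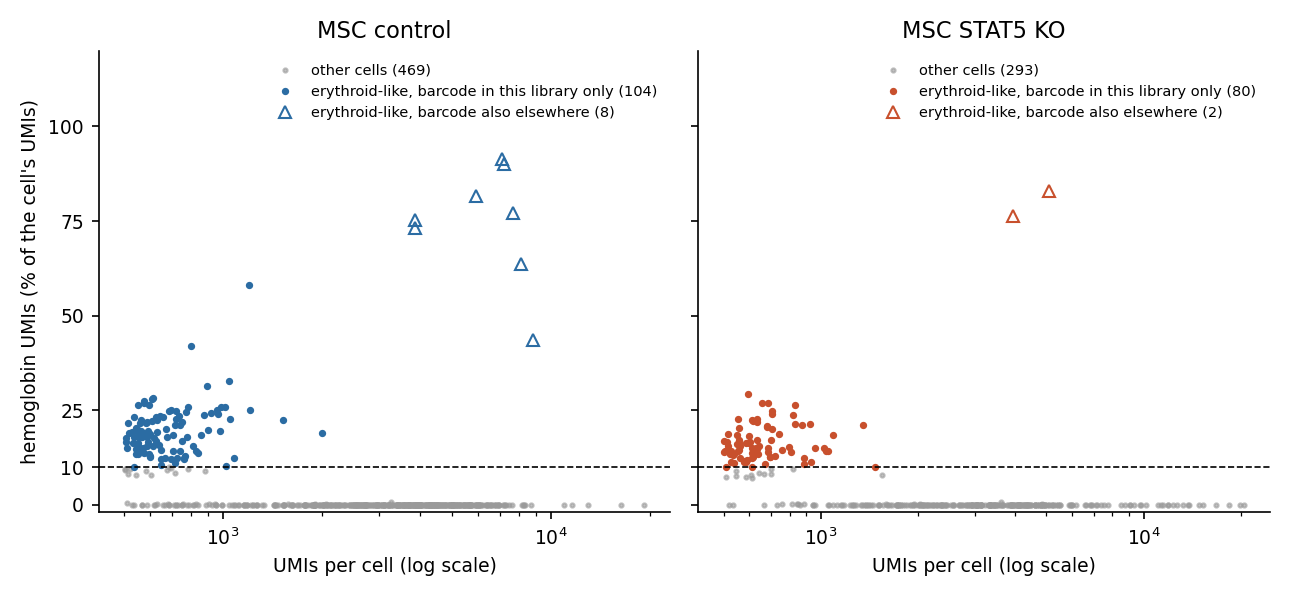
Share of hemoglobin UMIs (y axis, % of a cell's UMIs) against total UMIs per cell (x axis, log scale) in MSC control (left) and MSC STAT5 KO (right). Each point is a cell, the dashed line is the 10% threshold and triangles are erythroid-like cells whose barcode also occurs in another library. The 8 control and 2 STAT5 KO triangles lie at 3848 UMIs or more, and no cell lies between 1 and 5% hemoglobin.

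The hemoglobin share fell into 2 ranges with an empty stretch between them. In control 456 cells and in STAT5 KO 281 cells had under 1% hemoglobin, and 0 cells of either library had 1 to 5%. Between 5 and 10% there were 13 control and 12 STAT5 KO cells, which are counted among the other MSC cells. Their medians of 603 and 627 UMIs were close to those of the erythroid-like cells. The control cells just inside the threshold held 10.1, 10.2 and 10.5% hemoglobin and those just outside held 9.90, 9.61 and 9.58%. In STAT5 KO the nearest cells held 10.04, 10.06 and 10.1% inside and 9.49, 9.43 and 8.96% outside. At a threshold of 25% the erythroid-like share would be 4.13% in control and 1.60% in STAT5 KO.

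Within the erythroid-like cells the median hemoglobin share was 19.3% in control and 15.3% in STAT5 KO, and the highest were 91.4 and 83.0%. Between 10 and 25% lay 88 of 112 control and 76 of 82 STAT5 KO cells. Only 8 control and 2 STAT5 KO cells held 50% or more. Those few cells carried much of the globin, because the sum over cells was 42.2% hemoglobin in control and 25.5% in STAT5 KO.

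The shared barcodes were the deepest erythroid-like cells. The 8 in control held 3848 to 8826 UMIs and 43.6 to 91.4% hemoglobin, and the 2 in STAT5 KO held 3951 and 5088 UMIs and 76.3 and 83.0% hemoglobin. The remaining 104 control and 80 STAT5 KO cells reached at most 2000 and 1474 UMIs, with at most 58.0 and 29.3% hemoglobin. All 8 control barcodes also occurred in KLS control, where they held 533 to 1229 UMIs, 6 occurred in KLS STAT5 KO and 4 in MSC STAT5 KO. Their hemoglobin shares were nearly the same in each library. For example, the control barcode with 7085 UMIs and 91.4% hemoglobin held 1031 UMIs at 89.3% in KLS control, 820 UMIs at 90.6% in KLS STAT5 KO and 509 UMIs at 91.2% in MSC STAT5 KO. A second, with 8116 UMIs and 63.6% hemoglobin, held 63.8, 62.5 and 62.0% in those libraries. How the same barcodes came to be in several libraries was not tested.

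One control barcode was mixed. It had 8826 UMIs, 43.6% hemoglobin and UMIs of 12 of the 18 stromal markers, with 93 UMIs of Dcn (decorin, a matrix proteoglycan) and 236 of Gsn (gelsolin, an actin-severing protein). It carried 159 of the 184 stromal marker UMIs summed over all control erythroid-like cells. No STAT5 KO cell had UMIs of 3 or more stromal markers. In 89 of 112 control and 70 of 82 STAT5 KO cells there was no stromal marker UMI.

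Globin transcripts were of the adult genes. Hbb-bs, an adult beta chain gene, gave 47.9% of hemoglobin UMIs in control and 45.0% in STAT5 KO, and Hbb-bt gave 12.3 and 11.2%. Hba-a1 gave 23.2 and 25.6% and Hba-a2 16.6 and 18.2%. The Hba-a1 and Hba-a2 genes are near-identical copies, so how reads were split between them is uncertain and their sum is used below. The embryonic genes Hba-x, Hbb-bh1, Hbb-bh2 and Hbb-y held 1 UMI in all, of Hba-x in control.

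Alpha globin was under 50% of hemoglobin UMIs in both libraries. It was 39.9% (39.4 to 40.3%) in control and 43.8% (43.0 to 44.6%) in STAT5 KO. In the cells under 50% hemoglobin it was 43.7% (42.9 to 44.4%) and 46.6% (45.5 to 47.6%). Per cell the medians were 45.9 and 47.0%, with middle ranges of 40.5 to 50.3% and 42.6 to 51.8%, which overlap widely. The few hemoglobin UMIs of the other MSC cells had alpha shares of 44.3% in control and 44.4% in STAT5 KO. Most of these UMIs, 740 of 971 in control and 692 of 847 in STAT5 KO, lay in the 13 and 12 cells of 5 to 10% hemoglobin. So these alpha shares mostly describe cells just under the threshold. Over all other MSC cells hemoglobin was 0.0591 and 0.0744% of UMIs, and 291 of 469 and 187 of 293 had none.

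Outside the globin genes the erythroid-like cells held far higher levels of a wide set of red cell genes than the other MSC cells. Levels below are UMIs per 1000000 non-hemoglobin UMIs (CPM), summed over the cells of a library. Globin UMIs are left out of the total so that the rule does not lower every other gene. The non-hemoglobin sums were 72978 UMIs in control and 47422 in STAT5 KO, so 3 UMIs, taken as the least that can be told from 0, stand for 41.1 and 63.3 CPM. UMI counts are not divided by transcript length, so levels are compared between cells and not between genes. Log2 ratios carry 50 CPM added to both sides, which understates the change of low genes.

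Of 7223 genes that reached 50 UMIs in the MSC cells together, 345 (4.78%) were at least 4-fold higher in the erythroid-like than in the other cells of both libraries, and 434 (6.01%) were at least 4-fold lower in both. The median gene had a log2 ratio of -0.68 in control and -0.71 in STAT5 KO, and when ratios are centred on it 471 genes are higher and 149 lower. Of the 345 higher genes, 303 had at least 50 UMIs in erythroid-like cells, so they met the minimum by their own level there. Of the 434 lower genes, 124 had no UMI in erythroid-like cells of either library. The cells were chosen on the same libraries, and these counts, like the list counts below, describe the cells and support nothing further. A smaller set leaves out the cells of at least 50% hemoglobin and the mixed barcode, and with them all 10 shared barcodes. In it 351 genes were higher, 339 of them among the 345, and 594 were lower, 430 of them among the 434.

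**Figure D2:**
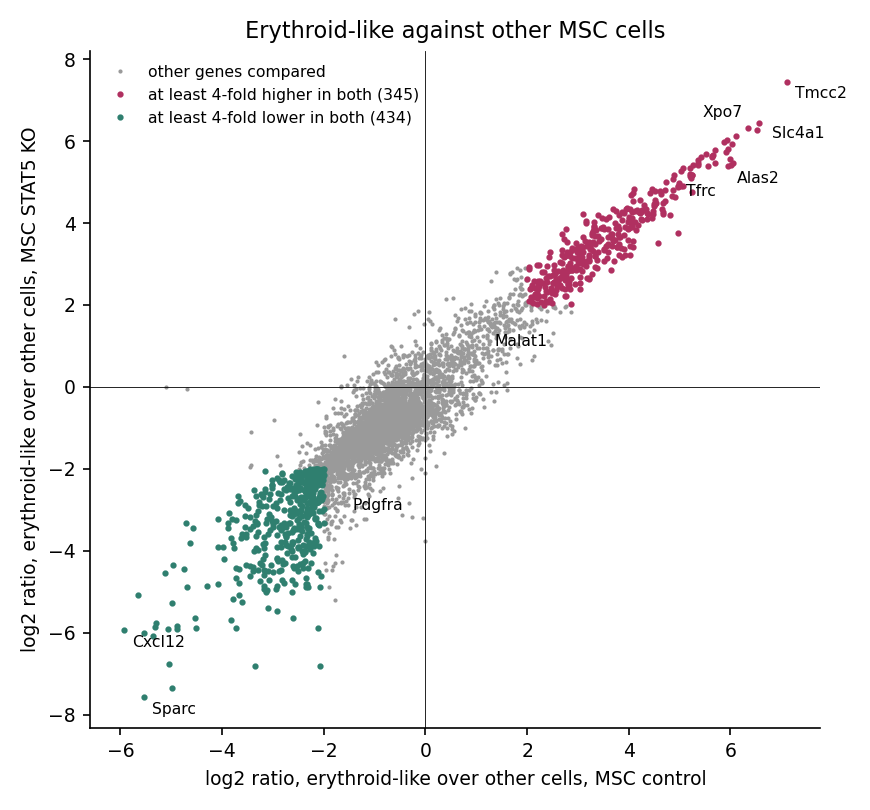
Log2 ratio of erythroid-like over other MSC cells (CPM plus 50) in MSC control (x axis) and MSC STAT5 KO (y axis) for the 7223 genes compared. Red points are the 345 genes at least 4-fold higher in both libraries and green points the 434 at least 4-fold lower in both. Tmcc2 lies at the top right at 7.11 and 7.46.

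The highest ratio belonged to Tmcc2 (a transmembrane coiled-coil protein, chromosome 1, 132356315 to 132391281, minus strand, GRCm38). Erythroid-like cells held 23322 CPM of it in control and 27392 in STAT5 KO, against 119 and 106 CPM in the other cells. It was seen in 98.2 and 100% of erythroid-like cells. Xpo7, an exportin needed for nuclear condensation in erythroblasts, followed with 12606 and 14234 CPM against 84.0 and 115 CPM. Next by the smaller log2 ratio was Rsad2, an interferon-inducible antiviral enzyme, with 9058 and 10164 CPM and log2 ratios of 6.34 and 6.33.

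The other leading genes fall into a few roles. Slc4a1 (band 3, the anion exchanger of the red cell) and Epb41 (protein 4.1 of the membrane skeleton) are membrane genes. Slc25a37, mitoferrin 1, carries iron into mitochondria. Bpgm makes the bisphosphoglycerate that lowers the oxygen affinity of hemoglobin, Car2 is a carbonic anhydrase, and Nt5c3 is the nucleotidase that clears pyrimidine nucleotides from reticulocytes. Mkrn1 is a ubiquitin ligase, Slfn14 an RNA-cleaving Schlafen protein, Tfdp2 a partner of E2F factors, Lpin2 a phosphatidate phosphatase and Clcn3 a chloride-proton exchanger. Specc1, Tmem131l, Ranbp10 and Gpcpd1 were also among the 20 genes with the highest ratios. The log2 ratios of the genes in these roles ran from 5.41 for Car2 in STAT5 KO to 6.53 for Slc4a1 in control. Of these 20 genes, 12 are in the RefSeq promoter table, and CACCC is upstream of 4, CCAAT of 6 and AGATAA of 2 of them. These 12 genes have 22 starts, of which 6 hold CACCC, 8 hold CCAAT and 2 hold AGATAA. Over all RefSeq starts the shares are 52.0, 33.8 and 9.99%, which compare with the counts of starts and not of genes.

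Heme synthesis genes were higher as a group. The 12 listed genes summed to 18855 CPM in control (exact Poisson interval 17872 to 19878) and to 17144 CPM in STAT5 KO (15986 to 18364), against 421 and 389 CPM in the other cells. Of 10 members compared, 7 were at least 4-fold higher in both libraries and 0 lower, with medians of 3.86 and 3.61. Alas2 (chromosome X, 150547375 to 150570638, plus strand) held 3576 and 2636 CPM against 8.52 and 14.1 CPM. Fech, ferrochelatase, which sets iron into the ring, held 1781 and 1539 CPM, and Ppox held 1096 and 1286 CPM. Urod, Glrx5 and Abcb10 were also called higher. Not every step stood out: Alad had 6 and 3 UMIs, and Tmem14c, a mitochondrial porphyrin transporter, had 1 and 0 UMIs against 83.4 and 72.1 CPM in the other cells.

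Of 8 iron genes compared, 3 were called higher and 0 lower. Tfrc (chromosome 16, 32608920 to 32632794, plus strand) held 2412 and 3374 CPM against 34.1 and 51.9 CPM in the other cells. Slc25a37 held 4727 and 4829 CPM against 27.4 and 37.8 CPM, and Ncoa4, which delivers ferritin for breakdown, 1233 and 1033 CPM against 35.3 and 54.5 CPM. These were the 3 called, and the median of the 8 was 0.08 in control and 0.68 in STAT5 KO. Slc40a1, the iron exporter ferroportin, had log2 ratios of 0.55 and 2.17, and Steap3, a reductase of transferrin iron, -0.92 and -1.40 on 2 and 0 UMIs. Tfr2, a second transferrin receptor, had no UMI. The ferritin genes were not called. Ftl1, the light chain, had log2 ratios of -0.39 and -1.05, and Fth1, the heavy chain, -1.01 and -1.45.

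Nearly the whole membrane list was high. Its 20 genes summed to 34942 CPM in control (33599 to 36325) and to 35616 CPM in STAT5 KO (33938 to 37356), against 459 and 528 CPM. Of 17 compared, 15 were called higher, with medians of 4.38 and 4.20. Slc4a1 (chromosome 11, 102348824 to 102366203, minus strand) held 8167 and 8076 CPM against 39.0 and 55.4 CPM, a ratio of 209.6-fold in control and 146-fold in STAT5 KO. Epb42 (protein 4.2) held 1315 and 1518 CPM, and Rhag, the Rh-associated glycoprotein, 1096 and 1054 CPM. Kel, a blood group protein, held 2672 and 3226 CPM. The compared genes not called were Aqp1, a water channel, at 260 and 42.2 CPM, and Gypc, glycophorin C, at 95.9 and 210.9 CPM.

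Most enzymes of the mature red cell that could be compared were also high. The list summed to 27899 CPM in control and to 22099 in STAT5 KO, against 765 and 686 CPM, and 8 of 9 compared genes were called higher. Gpx1 (glutathione peroxidase) held 8962 and 6474 CPM against 354 and 298 CPM. Bpgm held 6344 and 4702 CPM, Car2 3892 and 3121 CPM, and Prdx2 (peroxiredoxin) 2590 and 1792 CPM. Car1, another carbonic anhydrase, had 1 and 0 UMIs, and Pklr, red cell pyruvate kinase, had none. Hebp1, a heme-binding protein gene, was compared and not called, with 2 and 10 UMIs and log2 ratios of 0.07 and 1.82.

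Genes that act late in maturation were high too. The list summed to 48933 CPM in control (47341 to 50564) and to 50546 CPM in STAT5 KO (48543 to 52611), against 1390 and 1509 CPM. Of 19 compared, 15 were called higher. Ube2o, the ubiquitin enzyme that marks ribosomal proteins for removal, held 4083 and 4998 CPM against 51.1 and 58.9 CPM. Trim58, which acts in nuclear expulsion, held 480 and 717 CPM against 3.65 and 5.27 CPM. Bnip3l, a receptor for mitochondrial clearance, held 2261 and 2235 CPM against 131 and 123 CPM. Bcl2l1, which encodes the survival protein BCL-XL, held 2083 and 1856 CPM. Alox15 had no UMI, and Map1lc3b, Fbxo7, Fbxl5 and H1f0 were compared and not called.

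Genes of early stages were present in part. The early list of 12 genes summed to 2946 and 3015 CPM, against 661 and 531 CPM in the other cells and 3515 and 3709 CPM in the KLS cells with Klf1 and Gata1 described below. Of its members 4 had no UMI in control and 7 had none in STAT5 KO. Kit, Gata2, Myb and Muc13 had no UMI in the erythroid-like cells of either library. Gata1, the master factor of the lineage, had 0 UMIs in control and 1 in STAT5 KO. Klf1, the factor of the beta globin promoter, had 9 UMIs in control, all in 1 cell, and none in STAT5 KO. Of the 13 transcription factors listed, 4 could be compared, and Nfe2, Lmo2 and Foxo3 were called higher. Nfe2 held 863 and 527 CPM against 3.65 and 4.40 CPM. Of the early list 5 genes could be compared, and Rhd, a blood group gene, and Cd36, a fatty acid transporter gene, were called higher. Cd36 held 1425 and 1982 CPM, against 1.70 and 0.719 CPM in the KLS cells with Klf1 and Gata1. Rhd, which is also on the membrane list, held 863 and 569 CPM, against 83.5 and 110 CPM in them. Car1 held 13.7 and 0 CPM, against 1967 and 2163 CPM in those KLS cells. So the similar sums of the early list rest on different members.

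Proliferation genes were uneven. The 15 S phase genes summed to 12 UMIs in control and 7 in STAT5 KO, or 164 and 148 CPM against 502 and 441 CPM in the other cells. The mitosis list summed to 4220 and 2509 CPM against 221 and 279 CPM. Only 4 of its 15 genes could be compared, and Ube2c, Mki67 and Cenpf were called higher. In control 3 of its members had no UMI, and in STAT5 KO 8 had none. Of the 308 control mitosis UMIs, 123 came from the shared barcode with 8116 UMIs. Without it the control level was 2642 CPM, close to STAT5 KO. Mki67 held 918 and 780 CPM, whereas Top2a, a topoisomerase of dividing cells, had 1 and 0 UMIs.

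**Figure D3:**
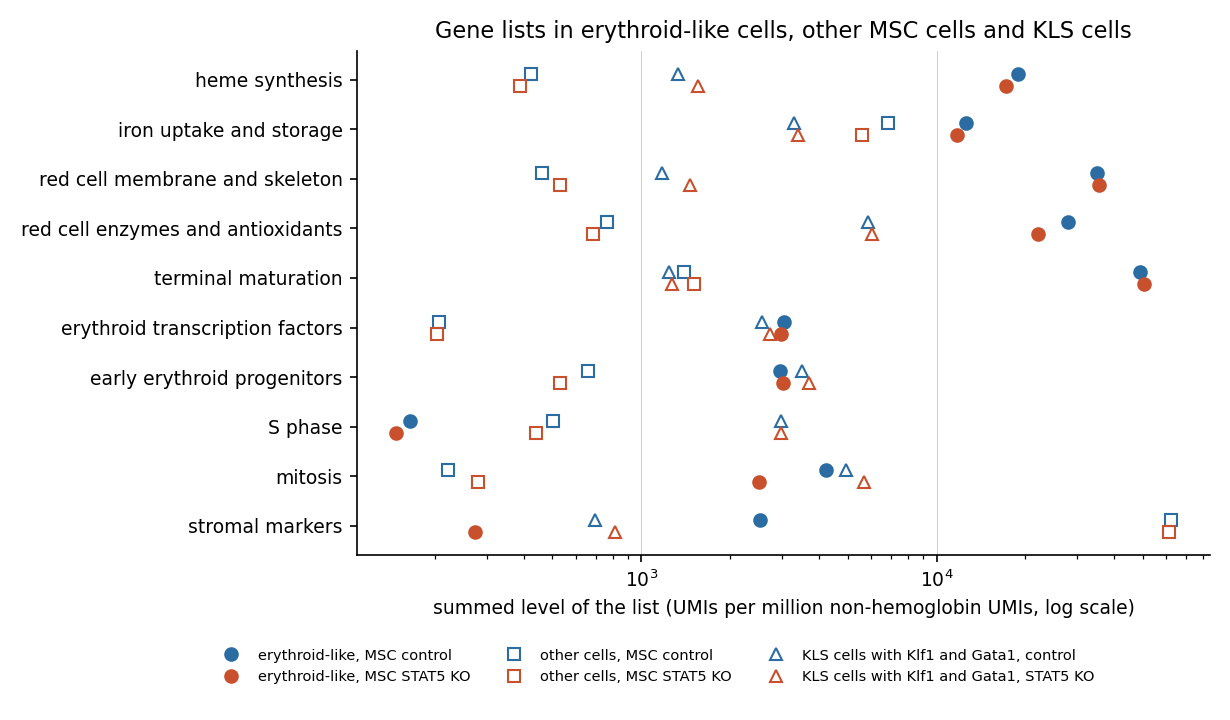
Summed level of each gene list (x axis, CPM on a log scale) in erythroid-like cells (filled circles), other MSC cells (squares) and KLS cells with Klf1 and Gata1 (triangles), with control in blue and STAT5 KO in orange. The membrane, enzyme, heme and terminal maturation lists lie far to the right in erythroid-like cells, and the S phase list lies to the left, at 164 and 148 CPM.

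Ribosomal and mitochondrial transcripts were scarce. The 80 ribosomal protein genes gave 1.17% of non-hemoglobin UMIs in control and 0.251% in STAT5 KO, against 7.53 and 8.35% in the other cells. Without the cells of at least 50% hemoglobin and the mixed barcode they gave 0.247 and 0.184%. No mitochondrial UMI was found in 91 of 112 control cells (81.3%) and 72 of 82 STAT5 KO cells (87.8%), while the other cells had medians of 2.18 and 2.65%. Malat1, a nuclear noncoding RNA, held 97701 CPM in control (95446 to 99995) and, in STAT5 KO, 111172 CPM (108191 to 114214), against 42414 and 41813 CPM. In the smaller set without the hemoglobin-rich and mixed cells Malat1 held 113536 and 114774 CPM.

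The antigens of the sort were read at the RNA level, with each cell thinned to 400 non-hemoglobin UMIs. Ptprc, which encodes CD45, had no UMI in any erythroid-like cell, thinned or not. The limit of 3 counts allows a share of cells with a UMI of up to 2.68% in control and 3.66% in STAT5 KO, which does not limit the share that expresses it. Tfrc (CD71) was seen in 61.6% of control (51.9 to 70.6%) and 67.1% of STAT5 KO erythroid-like cells (55.8 to 77.1%), against 2.77 and 3.07% of the other cells. Before thinning the Tfrc shares were 69.6 and 76.8%, against 8.10 and 13.7% of the other cells.

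The positive markers of the sort were low. Ly6a, which encodes Sca-1, was seen in 0.893% of control and 0% of STAT5 KO cells after thinning, against 13.9 and 12.3% of the other cells. Pdgfra, which encodes CD140a, was seen in 0% of both, against 10.9 and 8.87%, and its 5 UMIs in control all lay in 1 cell. The labels give the gate by surface protein, and surface protein was not measured here.

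Markers of other cell types were near 0. Of 18 stromal markers, 16 were at least 4-fold lower in both libraries and 0 higher, and the list summed to 184 UMIs in control, 159 of them in the mixed barcode, and 13 in STAT5 KO. Cxcl12, the stromal chemokine that retains stem cells, had 5 and 1 UMIs, or 68.5 and 21.1 CPM, against 7210 and 4325 CPM in the other cells. Sparc, a bone matrix protein, had 9 and 2 UMIs against 7980 and 17493 CPM. Col1a1, Col1a2, Igfbp5, Fmod, Comp, Chad, Cst3 and Igkc complete the 10 genes with the lowest ratios. The macrophage markers summed to 0 and 1 UMIs, the neutrophil markers to 0 and 1, the endothelial markers to 0 and 0, the lymphoid markers to 5 and 1, and the megakaryocyte markers to 6 and 0. Chondrocyte markers gave 10 and 8 UMIs. Lepr, Apoe, Kitl and Adipoq of the stromal list and all 3 C1q genes of the macrophage list had no UMI.

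The erythroid-like cells differed from the erythroid-primed progenitors of the KLS sort, taken as kept KLS cells with a UMI of Klf1 and of Gata1. There were 79 such cells in KLS control and 142 in KLS STAT5 KO, with medians of 24803 and 17594.5 UMIs. They held 0.00703 and 0.0155% hemoglobin UMIs and 25.4 and 25.6% ribosomal protein UMIs. Slc4a1 was at 0 UMIs in both, and Alas2 at 0 and 0.36 CPM. Car1, nearly absent from the erythroid-like cells, held 1967 and 2163 CPM in them, and their S phase list summed to 2975 and 2967 CPM. The sorts differ and the KLS cells were chosen on Klf1 and Gata1, so these values are set side by side with no test.

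Along the hemoglobin share the non-globin transcripts differed, but nearly all cells of the highest shares are shared barcodes. Values below sum both libraries. Between 10 and 25% hemoglobin there were 164 cells, none of them shared, and Malat1 held 117071 CPM, the enzyme list 20687 CPM, heme synthesis 17231 CPM and terminal maturation 50611 CPM. Between 25 and 50% there were 20 cells, 1 of them the mixed barcode, which is also shared. Without it Malat1 held 87603 CPM, the enzymes 23392 CPM, heme synthesis 18752 CPM and terminal maturation 52183 CPM, and ribosomal protein genes gave 0.265% of UMIs. With it these were 68564, 17769, 13391 and 37018 CPM and 3.57%. The 3 cells between 50 and 75% held 42714 CPM of Malat1, 58287 CPM of enzymes and 27586 CPM of heme synthesis. In the 7 cells above 75%, all shared barcodes, these were 29713, 88418 and 35627 CPM. So no erythroid-like cell of an unshared barcode was above 75%, and 1 was between 50 and 75%.

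With all cells of at least 25% hemoglobin summed, several genes differed from the cells of 10 to 25%. Gpx1 was at 15133 CPM against 5918 CPM, Car2 at 7715 against 2397 CPM, Prdx2 at 4822 against 1541 CPM and Alas2 at 6231 against 2333 CPM. Of these 30 cells 10 are shared barcodes. In the other 20 Gpx1 was at 9218 CPM (7516 to 11190) and Car2 at 3796 CPM (2736 to 5131), whereas Prdx2 was at 1356 CPM (759 to 2236) and Alas2 at 2259 CPM (1462 to 3335), close to the lower range. Ftl1 went from 845 CPM to 5564 CPM with the shared barcodes and to 1988 CPM (1246 to 3010) without them. Tfrc was at 1669 CPM with them and 2982 CPM (2053 to 4188) without, against 3114 CPM (2767 to 3494) at 10 to 25%. Xpo7, likewise, was at 10052 CPM with them but 16900 CPM (14565 to 19504) without, against 14170 CPM. The ranges use the measure that chose the cells, so these levels are a description of few cells.

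**Figure D4:**
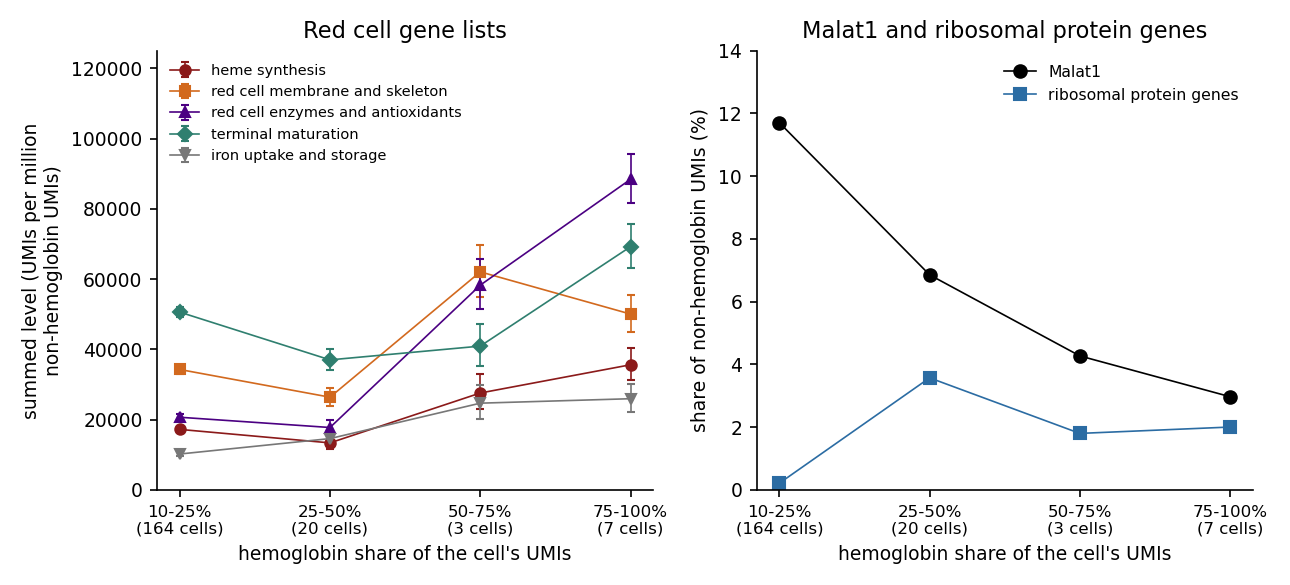
Left, summed levels of 5 red cell gene lists (y axis, CPM, with exact Poisson 95% intervals) in erythroid-like cells of both libraries by hemoglobin share (x axis). Right, Malat1 and ribosomal protein genes as a share of non-hemoglobin UMIs. The enzyme list is highest and Malat1 lowest at 75 to 100% hemoglobin, where all 7 cells are shared barcodes, and the 25 to 50% range includes the mixed barcode.

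STAT5 KO and control erythroid-like cells lay within 2-fold of each other in most genes that could be compared. Of 384 genes with at least 50 UMIs in these cells, 2 (0.521%) were at least 2-fold higher in STAT5 KO and 10 (2.60%) at least 2-fold lower, and 372 lay within 2-fold. The median gene had a log2 ratio of 0.08. The counting intervals of all 12 exclude 0, but the genes were picked by these same ratios, so this supports nothing further. The intervals also treat UMIs of the same cell as independent, and each compares 1 library with 1 other.

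The deleted genes could not be read in these cells. Stat5a (chromosome 11, 100859351 to 100885169, plus strand) and Stat5b (chromosome 11, 100780731 to 100850724, minus strand) had 0 UMIs in erythroid-like cells of both libraries. The limit of 3 UMIs stands, as above, for 41.1 and 63.3 CPM. The other MSC cells held 42.6 and 58.0 CPM of Stat5a and 54.8 and 49.2 CPM of Stat5b. The genotype labels therefore cannot be checked in these cells. In the KLS cells with Klf1 and Gata1, Stat5a was at 95.9 CPM in control but 13.0 in STAT5 KO, and Stat5b 58.4 and 6.47 CPM.

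Of the 16 genes of the STAT5 pathway list 3 could be compared between the libraries and 0 passed 2-fold. Epor, the erythropoietin receptor, had 12 and 7 UMIs, or 164 and 148 CPM, and Jak2 had 2 and 0 UMIs. Pim1, a survival kinase and known STAT5 target, held 5262 and 6179 CPM with a log2 ratio of 0.23. Bcl2l1, also a known target, held 2083 and 1856 CPM with a ratio of -0.16. Tfrc held 2412 and 3374 CPM, a ratio of 0.48 with an interval of 0.17 to 0.80 on the plain ratio. Cish, a feedback inhibitor that STAT5 induces, had 0 and 1 UMIs, and Socs2 had none. The median of the 3, Pim1, Bcl2l1 and Tfrc, was 0.23, and -0.01 in the smaller set. The list sum had a log2 ratio of 0.18 (0.02 to 0.34), and of 0.04 (-0.13 to 0.20) in the smaller set. Of its members 6 had no UMI in control and 10 had none in STAT5 KO.

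The summed red cell lists lay within 2-fold between the libraries, globins aside. The adult globins, which chose the cells, had a log2 ratio of -1.09 (-1.12 to -1.07) per non-hemoglobin UMI. In control 26575 of 53311 globin UMIs lay in 5 cells of at least 75% hemoglobin. In STAT5 KO 7237 of 16248 lay in 2 such cells. The globin ratio is given only with these cells included, so it also reflects their unequal numbers. Of the lists of other cell types, the stromal markers were at -3.20 (-4.14 to -2.39) and the lymphoid markers at -1.70 on 5 and 1 UMIs. The membrane list had a log2 ratio of 0.03 (-0.06 to 0.12) and terminal maturation 0.05 (-0.03 to 0.12). Per non-hemoglobin UMI the enzyme list was lower in STAT5 KO, at -0.34 (-0.45 to -0.23), as were heme synthesis at -0.14 (-0.26 to -0.01) and mitosis at -0.75 (-1.07 to -0.44). The hemoglobin-rich and mixed cells are unequal between the libraries. In the 103 control and 80 STAT5 KO cells under 50% hemoglobin and not mixed, the enzyme list gave -0.15 (-0.27 to -0.03), heme synthesis -0.14 (-0.28 to -0.00427) and mitosis -0.19 (-0.54 to 0.16).

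Members called were 0 of 7 compared for heme synthesis (median -0.20), 0 of 15 for membrane (0.02), 0 of 8 for enzymes (-0.37), 1 of 5 for iron (-0.24) and 1 of 16 for terminal maturation (0.03). The iron and maturation genes called, Ftl1 and Ube2l6, were lower in STAT5 KO. The medians depended on the scaling and on the hemoglobin-rich cells. With totals over all UMIs they were 0.15 for heme synthesis, 0.37 for membrane, -0.01 for enzymes, 0.10 for iron and 0.39 for terminal maturation. Without cells of at least 50% hemoglobin they were 0.06, 0.07, -0.04, 0.06 and 0.08 in the same order.

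**Figure D5:**
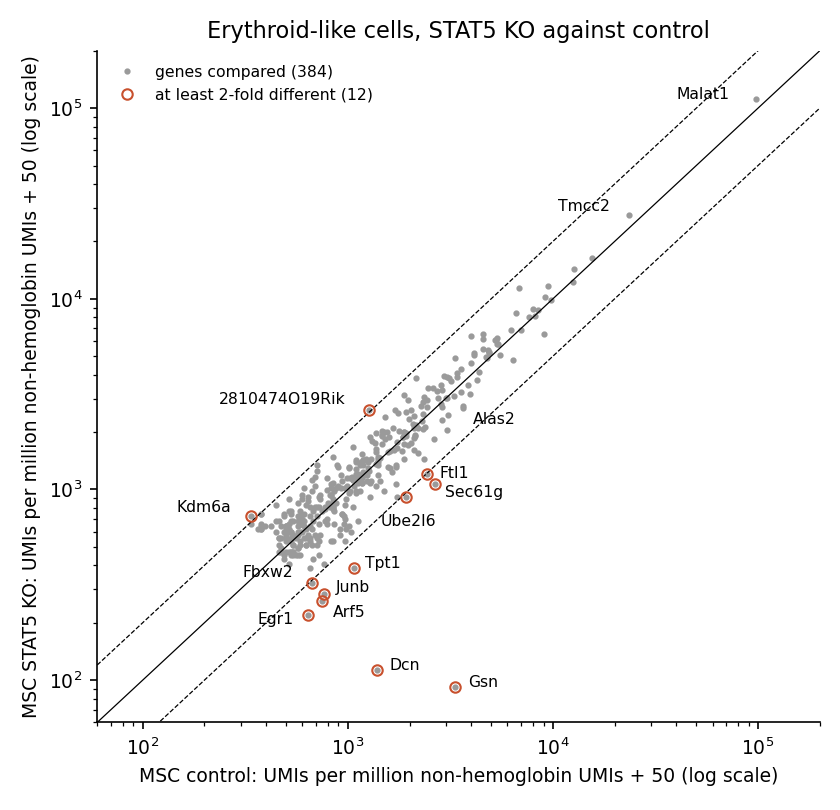
Level in MSC STAT5 KO (y axis) against MSC control (x axis) erythroid-like cells, as CPM plus 50 on log scales, for the 384 genes compared. The solid line is equality, dashed lines mark 2-fold, and circles mark the 2 genes higher and 10 genes lower by at least 2-fold. Gsn and Dcn lie farthest from the line.

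The 2 genes higher in STAT5 KO were Kdm6a and 2810474O19Rik. Kdm6a, an X-linked histone demethylase gene (chromosome X, 18162575 to 18279936, plus strand), had 21 UMIs in control and 32 in STAT5 KO, or 288 and 675 CPM, a log2 ratio of 1.10. In the same cells Xist, the RNA of the inactive X, had 8 UMIs in control and 10 in STAT5 KO, which is 110 and 211 CPM, and the Y-linked Ddx3y had 15 and 3 UMIs, which is 206 and 63.3 CPM. In the other MSC cells Xist was at 270.3 and 555 CPM and Ddx3y at 74.3 and 92.3 CPM, so transcripts of the inactive X and of the Y chromosome were present in both libraries. Their part in the Kdm6a ratio was not tested. 2810474O19Rik, a chromosome 6 gene (149309414 to 149335663, plus strand) for which no function is given here, held 1220 and 2552 CPM, a ratio of 1.04. Without the cells of at least 50% hemoglobin and the mixed barcode the ratios were 1.14 and 0.98, and Kdm6a had too few UMIs to be compared. Neither passed 2-fold at a hemoglobin threshold of 5%, with ratios of 0.97 and 0.93. At 25% both had too few UMIs to be compared.

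Most genes lower in STAT5 KO came within 2-fold in the smaller set, which leaves out 9 control and 2 STAT5 KO cells. Several had too few UMIs there to be compared, so their ratios in it are uncertain. Gsn (3289 CPM in control, 42.2 in STAT5 KO) and Dcn (1343 and 63.3 CPM) are stromal transcripts, and 236 of 240 control Gsn UMIs and 93 of 98 control Dcn UMIs lay in the mixed barcode. Egr1 and Junb, immediate early genes, had ratios of -1.55 and -1.44. Without the cells of at least 50% hemoglobin and the mixed barcode Egr1 was at -0.86 and Junb turned to 0.40, and with the mixed barcode alone left out they were at -0.77 and 0.41. In the smaller set Egr1 had 21 control and 8 STAT5 KO UMIs (-2.42 to 0.20 on the plain ratio). Junb had 10 and 11 (-0.88 to 1.89), and both genes were under the minimum of 50. Tpt1, a translationally controlled protein gene, went from -1.48 to -0.67, on only 20 and 9 UMIs (-2.11 to 0.40). Sec61g, a subunit of the protein-conducting channel, went from -1.32 to -0.22. Ube2l6, the conjugating enzyme of ISG15, went from -1.07 to -0.33 and Ftl1 from -1.01 to -0.30. With the mixed barcode alone left out these 4 were at -1.02, -1.40, -1.12 and -0.63. Arf5, a small GTPase gene, was at -1.52 and then at -1.51 on 10 UMIs in all (-8.27 to 0.04 on the plain ratio). At a hemoglobin threshold of 25% it turned to 0.34 on 52 UMIs.

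Fbxw2, an F-box protein gene of ubiquitin ligases (chromosome 2, 34804514 to 34826311, minus strand), kept its difference in that smaller set. It had 45 UMIs in control and 13 in STAT5 KO, or 617 and 274 CPM, a ratio of -1.04, and -1.23 (-2.39 to -0.45 on the plain ratio) in the smaller set. There 0 of 358 genes were at least 2-fold higher in STAT5 KO and 2 were lower, Fbxw2 and Cnppd1, a cyclin-like protein gene named after its value was seen, at -1.05. With every barcode found in another library dropped, 1 gene was higher and 2 were lower.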

How the data were processed

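The authors deposited raw UMI counts per gene and barcode from 10x Chromium libraries, with no normalization, for 31053 genes. Per the file headers the software version is 3.1.0, and the submitters' processing notes name Cell Ranger and the builds GRCm38 and mm10. The cell calling and strand rule are not given in the sources used here, so overlapping and antisense genes cannot be told apart. Gene coordinates come from GENCODE on GRCm38, where 31011 identifiers matched.

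The cell filter took barcodes of 200 or more genes and up to 10% mitochondrial UMIs, except those with more UMIs in another library. Counts were summed per library over erythroid-like and over other MSC cells and scaled to CPM of non-hemoglobin UMIs (Python 3.11.15, numpy 2.4.6, scipy 1.17.1, pandas 2.3.3). Genes needed 50 UMIs, ratios had a pseudocount of 50 CPM, and genes were called at 4-fold in both libraries between cell types and at 2-fold between genotypes. Shares carry exact Clopper-Pearson, sums exact Poisson and ratios exact conditional binomial 95% intervals, and beside a share of 0 the limit is 3 counts of the total. The ratio steps were tested on simulated data. Doublets were kept; the highest Scrublet scores (scanpy 1.11.5, 0.8% per 1000 barcodes) marked 4 control and 1 STAT5 KO barcodes, of which 0 were erythroid-like.

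Named between cell types were the 20 highest and 10 lowest genes by the smaller of the 2 log2 ratios, and between genotypes up to 10 each way with a UMI in at least 5% of cells of the higher library, without globin, mitochondrial, Xist and Y-linked genes. Members of the 20 gene lists may also be named. Some genes that met these rules are not reported here. Gsn, Dcn, Malat1, the ribosomal protein genes, Xist and Ddx3y were chosen after their values were seen. The cells, lists and rules were chosen with earlier results of these data known. Alternatives covered the hemoglobin threshold, shared barcodes, cell filter, doublets, mixed barcodes (a UMI of at least 3 stromal markers), scaling, pseudocount and UMI minimum. Leaving out cells of at least 50% hemoglobin, alone or with mixed barcodes, and dropping the minimum of genes were added after seeing the data.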

Additional observations from a re-analysis of the deposited data

Results flagged for a closer look

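Hemoglobin-rich barcodes also occurred outside the cells described. In MSC control 10 barcodes with at least 10% hemoglobin UMIs failed the cell filter, all for having under 200 genes, of 59 barcodes that failed. They held 501 to 4198 UMIs, 16 to 199 genes and 15.5 to 97.9% hemoglobin, with a median of 86.9%. In MSC STAT5 KO 14 such barcodes failed of 40, with 502 to 6715 UMIs, 28 to 196 genes and a median of 92.4% hemoglobin. Of these, 2 control and 8 STAT5 KO barcodes also occur in another library. There is no control sample without red cells to set them against, and they are in no comparison above.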

How the results depend on the processing

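At a hemoglobin threshold of 25% the shares were 4.13% in control and 1.60% in STAT5 KO, 223 genes were higher and 243 lower in erythroid-like cells, and 11 were higher and 5 lower in STAT5 KO. With every barcode found in another library dropped, the shares were 26.9 and 40.8%, with 1 gene higher and 2 lower in STAT5 KO. A minimum of 500 genes left shares of 1.15 and 0%, so no gene could be compared. Between genotypes, genes higher and lower in STAT5 KO were 1 and 6 without mixed barcodes and 21 and 6 with totals over all UMIs. With a minimum of 20 UMIs they were 12 and 50. Without cells of at least 50% hemoglobin 1 was higher, and with mixed barcodes also left out 0 were higher and 2 lower. Centred on the median gene, 149 genes were lower in erythroid-like cells and 1 higher in STAT5 KO. The mean of single cells gave 6 lower in STAT5 KO. A pseudocount of 10 CPM gave 2428 lower in erythroid-like cells and 5 higher in STAT5 KO, and dropping the minimum of genes gave 1 higher. The causes of these shifts were not tested. The count of genes higher in erythroid-like cells stayed within 1.5 times under 14 of 15 alternatives. Depth limits what low genes can show: 3 UMIs are 41.1 CPM in control but 63.3 in STAT5 KO. No paired analysis was possible because each group has 1 library.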

Other observations

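Transcripts outside the gene lists were also high in the erythroid-like cells. Ubb, a polyubiquitin gene, held 15484 CPM in control and 16406 in STAT5 KO, against 3419 and 3054 CPM in the other MSC cells. Pabpc1, a poly(A)-binding protein gene, held 12483 and 12210 CPM against 612 and 663 CPM, and Eif5, a translation initiation factor gene, held 9715 and 9806 CPM against 371 and 385 CPM. Isg15, an interferon-inducible ubiquitin-like protein gene, held 3001 and 2003 CPM against 67.0 and 23.7 CPM. Neat1, a nuclear noncoding RNA, held 6755 and 11303 CPM against 1270 and 1741 CPM, a log2 ratio of STAT5 KO over control of 0.74 in the erythroid-like cells. These genes were chosen after their values were seen.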
